A study of Homo sapiens with 6 samples.

Results

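The abundant long noncoding RNAs (lncRNAs) of ARPE-19 cells were the 129 genes typed as lncRNA whose mean raw count over the 6 libraries was 500 or more. They were selected by gene type, mean count and name, and the group, its limit and the names left out were chosen with earlier results of these data known. The small nucleolar RNA host genes named SNHG with a number, and GAS5, ZFAS1, DANCR, EPB41L4A-AS1 and MEG3, were left out by the rule, which removed 19 genes at the same limit. The 129 genes came from 8518 lncRNA genes among 30618 genes in the count table, and 129 of 129 passed the filter on low counts. Their mean counts ran from 506 to 34248, with a median of 882. Just inside the limit lay RP11-552M11.4 (516), AGAP2-AS1 (514) and NAV2-AS6 (506), and just outside it lay ZNF213-AS1 (499), ZMIZ1-AS1 (494) and LINC00662 (491).

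ARPE-19, the line studied, was established from human retinal pigment epithelium. All 6 libraries came from cells kept in 50 mM glucose and transfected by lipid with an siRNA, either the negative control (NC, 3 libraries) or the siRNA against EIF1 (siEIF1, 3 libraries), so that both groups share the line, the glucose and the transfection. The methods call the replicates biological, with all libraries made side by side and sequenced in 1 run. The methods print 1 EIF1 siRNA sequence and describe no osmotic control, and a library without high glucose was not analysed here. The RNA was captured by its poly(A) tail, and the libraries were strand-specific and held 26499929 to 31431479 counts. EIF1, which encodes the initiation factor that guards start codon selection, was at 1305, 1254 and 1227 CPM (counts scaled to library size, with TMM factors) in NC and at 109, 104 and 103 CPM in siEIF1, a log2 fold change of -3.58 ± 0.055 (SE, edgeR adjusted p = 1.08e-13). Of 13 pigment epithelium markers in the files, KRT18 and KRT8 had mean FPKM values of 354 and 122, BEST1 59.0 and OTX2 18.2, while TYR and DCT lay below 0.01 FPKM. The endothelial marker PECAM1 and the glial marker GFAP had mean values of 0.00167 and 0.0233 FPKM.

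LncRNAs are transcripts that are not translated into long proteins. Some build or bind nuclear bodies, as NEAT1 does for paraspeckles and MALAT1 for nuclear speckles, some bind proteins in the cytoplasm, as NORAD binds PUM2, and some are the precursors of microRNAs. Many others carry the name of a coding gene that they lie beside or opposite to. Among the 129 genes, 39 had an antisense name, 48 only a clone name, 15 a LINC number, 18 a name of their own, 5 the name of a microRNA host and 4 a divergent or overlapping name. On GRCh38 with GENCODE v44, each gene was put in a single class by the exon bases that it shares with coding exons. The 25 same-strand genes had 10% or more on the same strand as coding exons, and no less there than opposite to them. Some of these also passed 10% on the opposite strand. The 33 opposite-strand genes were the others with 10% or more opposite to coding exons. The remaining 71, below 10% on both strands, were taken as separate from coding exons.

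3 kinds of sequence are shown because the results return to them: protein-binding elements of NORAD, the 3′ end of MALAT1, and a stretch that a lncRNA entry shares with GAPDH on the other strand. NORAD (ENSG00000260032.2, chr20:36045618-36051018, minus strand, a single exon of 5401 bases) is known for many binding elements of PUM2, an RNA-binding protein that shortens the life of its targets. The element TGTANATA was searched in the sense strand of the longest GENCODE v44 transcript of each of the 129 genes. NORAD held 15, the next highest number was 7 (FTX), and 37 of 129 genes (28.7%) held at least 1. In NORAD, 3 pairs of elements started 9 bases apart, at chr20:36049491-36049531, chr20:36048294-36048334 and chr20:36047658-36047698, printed here in this order from the minus strand with the elements in capitals.
NORAD pair A: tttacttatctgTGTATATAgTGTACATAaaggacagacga
NORAD pair B: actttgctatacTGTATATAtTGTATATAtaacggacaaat
NORAD pair C: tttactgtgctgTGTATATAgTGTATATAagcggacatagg

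MALAT1 (ENSG00000251562.8, chr11:65497640-65508073, plus strand, a single exon of 10434 bases) does not end in an ordinary poly(A) tail. RNase P cuts it, a small tRNA-like RNA is released downstream, and the new end folds into a triple helix of U-rich motifs with an A-rich tract. These motifs were found at chr11:65506029-65506116, and the annotated small RNA starts at the next base, 65506117, and ends at 65506173. The capitals mark both U-rich motifs and the A-rich tract.
MALAT1: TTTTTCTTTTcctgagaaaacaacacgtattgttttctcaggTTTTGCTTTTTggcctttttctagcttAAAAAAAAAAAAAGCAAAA

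The entry RP5-940J5.9 (ENSG00000269968.1, chr12:6537794-6538370, minus strand, 422 exon bases) lies wholly opposite to exons of GAPDH, the glycolytic enzyme that is often used as a reference gene. Over chr12:6537926-6537985, which is coding sequence of GAPDH, both strands read as follows.
RP5-940J5.9: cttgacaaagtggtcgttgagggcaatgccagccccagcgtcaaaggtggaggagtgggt
GAPDH: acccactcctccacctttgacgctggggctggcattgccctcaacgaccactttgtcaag

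Over the whole group of abundant lncRNAs the median log2 fold change was 0.001, against 0.003 over all 16749 genes tested, and 65 of 129 had a positive value. At an edgeR adjusted p under 0.05, 15 were higher and 11 lower in siEIF1. This was 26 of 129 (20.2%), where the background was 20.6% of all genes tested and 28.6% of the genes tested with a mean count of 500 or more. The share that rose was 11.6%, against 10.2% of all genes tested and 15.5% of those at the same count limit. The share that fell was 8.53%, against 10.4% and 13.1%. The share called thus lay near that of all genes tested and below that of genes at the same count limit, a difference that was not tested. Those genes share only the lower limit with the members, and 7832 of the 8028 are protein-coding. Their median SE was 0.060, against 0.071 for the members, so they are not a matched set. None (0) of the 129 passed the further limit of a 2-fold change. It was passed by 1.71% of all genes tested and 0.212% of those at the same count limit. In edgeR, 26 of the 129 had an adjusted p under 0.05 and 39 an unadjusted p under 0.05. DESeq2 called 23 of the 129 and 18.2% of all genes. The CPM values of the groups did not overlap for 44 of the 129 genes (34.1%), against a background of 37.1% of all genes tested and 46.8% of those at the same count limit. Of the 19 host genes and others that the rule left out, 6 fell and 0 rose, with 10 at an unadjusted p under 0.05 and a median log2 fold change of -0.127.

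**Figure D1:**
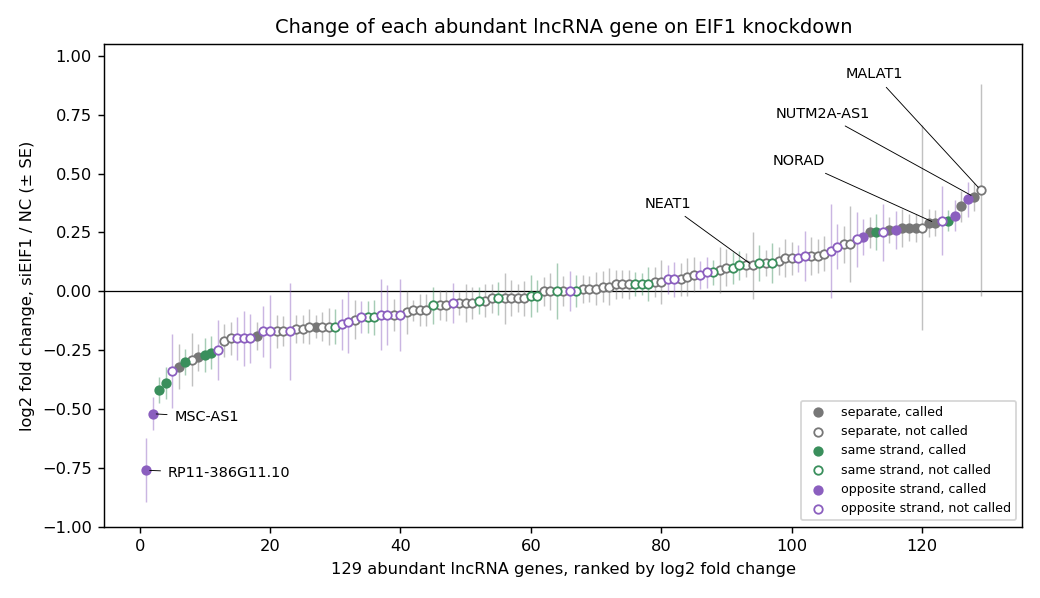
Log2 fold change of siEIF1 over NC (y axis, bars are ± 1 SE) for the 129 abundant lncRNA genes, ranked along the x axis and coloured by their overlap with coding exons; filled points had an edgeR adjusted p under 0.05. The values run from -0.76 for RP11-386G11.10 to 0.43 for MALAT1, which has an SE of 0.448 and was not called.

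Together the 129 genes took 0.896%, 0.958% and 0.963% of the counts of the NC libraries and 0.863%, 1.03% and 1.04% of those of the siEIF1 libraries. The group means were 0.939% ± 0.0375 and 0.977% ± 0.0988 (SD, n = 3 each, exact two-sided permutation p = 0.600, where 0.1 is the smallest that 3 against 3 allows). Without NEAT1 and MALAT1 both means were 0.729%, with SDs of 0.0136 and 0.0272 (exact two-sided permutation p = 1.0, n = 3 each). These shares describe RNA in bulk samples, in which fewer cells of a type and less RNA per cell cannot be told apart.

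Per length of transcript, the entries with high mean levels included RP5-940J5.9 (630 FPKM, opposite to GAPDH), RP11-290D2.6 (328, opposite to TPT1), RP11-124N14.3 (241, opposite to VIM), XXbac-BPG254B15.11 (197, same strand as HSPA1B), RP11-793H13.8 (168, same strand as PCBP2) and RP11-138I1.4 (104, opposite to UBB). MALAT1 (102 FPKM) was the first entry in this order that was separate from coding exons, and NORAD (86.3) and NEAT1 (42.4) came after it. MALAT1 ranged from 25.71 to 181.15 FPKM over the libraries, a spread that takes in the mean levels of the entries from RP11-793H13.8 down to NORAD and NEAT1.

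NORAD was among the genes that rose. Its CPM was 509, 529 and 511 in NC and 592, 626 and 671 in siEIF1. Every siEIF1 library lay above every NC library, and the rise was 21.9% (log2 fold change 0.29 ± 0.055 (SE), adjusted p = 0.00239). Without any single library its log2 fold change stayed between 0.24 and 0.33, with a largest adjusted p of 0.0197. Among proteins listed as NORAD-bound, RBMX, an hnRNP-like splicing regulator, rose (0.24 ± 0.047 (SE), adjusted p = 0.00271). PUM2 (-0.15) and KHDRBS1 (0.08) did not pass the test, with adjusted p-values of 0.0838 and 0.300.

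The microRNA hosts did not move together. A host transcript is cut in the nucleus to release hairpins, and the mature microRNA then pairs with targets mainly through its seed, bases 2 to 8. The mature sequences below, from the RefSeq table on GRCh38, are those inside hosts that rose or that carry a shared seed, with the seed in capitals. The miR-34a-5p strand lies in MIR34AHG at chr1:9151735-9151756, miR-4435 lies both in MIR4435-2HG at chr2:111321061-111321082 and in CYTOR at chr2:87629764-87629785, and miR-221-3p and miR-222-3p, which have the seed GCUACAU in common, lie in MIR222HG at chrX:45746180-45746202 and chrX:45747036-45747056.
hsa-miR-34a-5p: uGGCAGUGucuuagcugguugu
hsa-miR-4435: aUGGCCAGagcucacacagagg
hsa-miR-221-3p: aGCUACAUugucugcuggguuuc
hsa-miR-222-3p: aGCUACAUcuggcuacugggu

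MIR34AHG, whose promoter is a known target of p53, was at 33.7, 37.7 and 36.6 CPM in NC and at 42.2, 43.5 and 44.4 CPM in siEIF1, with no overlap between the groups. It rose by 20.4% (log2 fold change 0.27 ± 0.059 (SE), adjusted p = 0.00598). Of 18 p53 target genes in a list for comparison, 7 rose (38.9%) and 3 fell (16.7%), and the median log2 fold change was 0.089. The backgrounds were 10.2% and 10.4% of all genes tested and 15.5% and 13.1% of those with a mean count of 500 or more. Among them BTG2, an antiproliferative gene, rose (0.49 ± 0.062 (SE), adjusted p = 1.14e-04), and GADD45A, a growth arrest gene, fell (-0.62 ± 0.045 (SE), adjusted p = 1.22e-06). The cell cycle inhibitor CDKN1A (-0.15, adjusted p = 0.0747) and the p53 ligase MDM2 (0.08, adjusted p = 0.290) did not pass the test.

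MIR4435-2HG and CYTOR, which lie on both sides of the centromere of chromosome 2 and are near-copies of each other, rose by similar amounts. MIR4435-2HG was at 89.9, 99.3 and 94.4 CPM in NC and 113, 120 and 106 CPM in siEIF1 (0.26 ± 0.056 (SE), adjusted p = 0.00576). CYTOR was at 57.8, 63.5 and 63.4 CPM in NC and 71.3, 80.4 and 68.5 CPM in siEIF1 (0.25 ± 0.065 (SE), adjusted p = 0.0144). The groups of neither gene overlapped. Of the 31-base words in the CYTOR transcripts, 61.9% are also in those of MIR4435-2HG. The authors counted uniquely mapped reads, and how reads from the shared stretches were handled was not tested. The values of these genes may therefore not be independent.

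The other 3 hosts did not pass the test. MIR100HG, the host of miR-100, let-7a and miR-125b, was at 90.8, 91.8 and 86.5 CPM in NC and 101, 92.5 and 96.1 CPM in siEIF1 (0.11 ± 0.051 (SE), adjusted p = 0.165). MIR22HG had a log2 fold change of -0.06 (adjusted p = 0.602). MIR222HG had the lowest value of the hosts, -0.29 ± 0.112 (SE, adjusted p = 0.0899), with 28.0, 19.9 and 21.0 CPM in NC and 20.5, 17.5 and 18.4 CPM in siEIF1, and its groups overlapped.

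The nuclear body RNAs MALAT1 and NEAT1 varied widely between libraries of a group. MALAT1 was at 691, 918 and 1214 CPM in NC and at 280, 1592 and 1936 CPM in siEIF1. The library siEIF1 1 was the lowest of the 6 and the other siEIF1 libraries were the highest, a 6.90-fold range within the group, against 1.76-fold within NC. The log2 fold change was therefore 0.43 ± 0.448 (SE) with an adjusted p of 0.556, and it was 0.91 (adjusted p = 5.48e-04) without siEIF1 1 and -0.01 (adjusted p = 0.995) without siEIF1 3. NEAT1 was at 1000, 1207 and 1210 CPM in NC and 882, 1321 and 1491 CPM in siEIF1, with siEIF1 1 again the lowest and siEIF1 3 the highest (0.11 ± 0.141 (SE), adjusted p = 0.634). Without siEIF1 1 it was 0.30 (adjusted p = 0.0167), and without siEIF1 3 it was -0.05 (adjusted p = 0.833).

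Of the 18 abundant lncRNA genes with a 1.5-fold or larger range within a group, 4 were lowest in siEIF1 1: MALAT1, NEAT1, RP11-596C23.6 and RP11-156P1.3. RP11-596C23.6, whose exons hold all 300 bases of RN7SL2 on the same strand, an RNA of the signal recognition particle, was at 23.0, 31.4 and 38.5 CPM in NC and 7.92, 47.7 and 56.7 CPM in siEIF1 (0.27 ± 0.434 (SE), adjusted p = 0.721). Its 7.17-fold range within siEIF1 was wider than that of MALAT1. RP11-156P1.3 was at 20.0, 21.3 and 23.2 CPM in NC and 16.9, 25.3 and 31.8 CPM in siEIF1 (0.20 ± 0.161 (SE), adjusted p = 0.442). RP11-596C23.6 and RP11-156P1.3 were called higher when siEIF1 1 was left out. RNAs that carry no poly(A) tail were looked up for this reason, after the values of MALAT1 were seen, and 4 of 5 were lowest in siEIF1 1. Among the 129 abundant lncRNA genes, 20 were lowest in that library. RN7SL1 of the signal recognition particle was at 18.9, 27.0 and 30.5 CPM in NC and 6.40, 33.2 and 43.5 CPM in siEIF1, and 7SK, which holds back the elongation factor P-TEFb, was at 8.70, 19.4 and 12.4 CPM in NC and 4.15, 21.6 and 20.7 CPM in siEIF1. RMRP and RPPH1, the RNAs of RNase MRP and RNase P, were at 2.12 and 1.74 CPM in siEIF1 1 and at 3.35 to 8.73 CPM in the other siEIF1 libraries. In NC, RMRP was at 3.43, 7.17 and 4.88 CPM and RPPH1 at 2.18, 6.01 and 2.51 CPM. The U3 RNA SNORD3A was lowest in NC 1 (3.12 CPM), with 3.44 CPM in siEIF1 1 and 3.21 CPM in siEIF1 3. The part of poly(A) capture in the values of MALAT1 and NEAT1 was not tested.

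**Figure D2:**
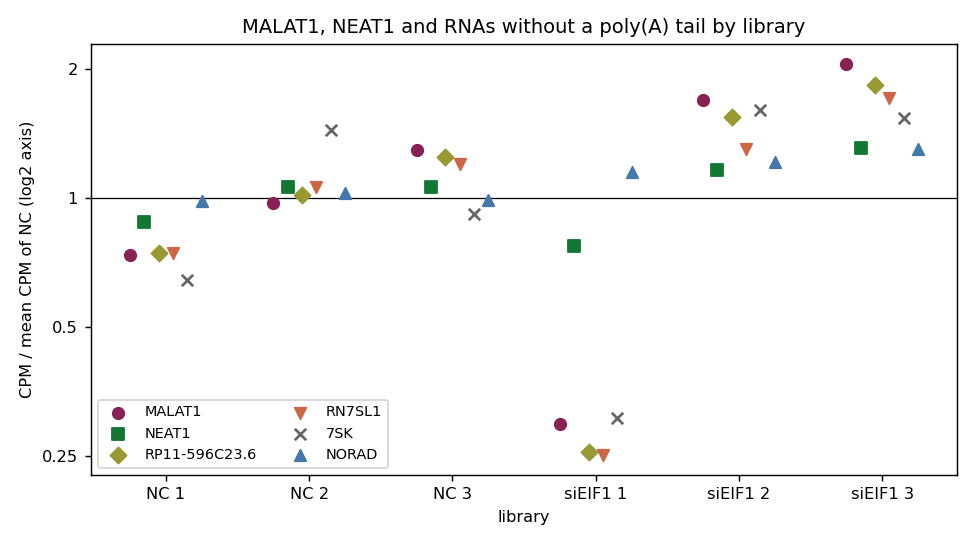
CPM of each library divided by the mean CPM of the 3 NC libraries (y axis, log2 scale) for 4 of the 129 lncRNA genes and for RN7SL1 and 7SK, which carry no poly(A) tail, in each of the 6 libraries (x axis). MALAT1, RP11-596C23.6, RN7SL1 and 7SK are lowest in siEIF1 1 (280, 7.92, 6.40 and 4.15 CPM), whereas NORAD in that library (592 CPM) lies above all NC libraries.

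Of 19 proteins listed for paraspeckles, the bodies that NEAT1 builds, 2 rose and 2 fell (10.5% each), with a median log2 fold change of -0.032. The backgrounds were 10.2% and 10.4% of all genes tested and 15.5% and 13.1% of those with a mean count of 500 or more. HNRNPH3, an hnRNP, fell (-0.19, adjusted p = 0.00922), while RBMX and HNRNPA1 (0.21, adjusted p = 0.0174) rose. The core proteins NONO (0.04), SFPQ (0.06) and PSPC1 (0.11) did not pass the test (adjusted p = 0.669, 0.412 and 0.277). A further list held 18 genes of the nuclear exosome, the nuclease that degrades many noncoding transcripts, and of its NEXT and PAXT adaptors. Of these, 6 fell (33.3%) and 1 rose (5.56%), beside the same backgrounds, with a median log2 fold change of -0.069. The ring subunits EXOSC6 (-0.85 ± 0.072 (SE), adjusted p = 3.69e-06), EXOSC8 (-0.53) and EXOSC5 (-0.44) fell, and the NEXT subunit RBM7 rose (0.31). The catalytic subunits EXOSC10 (-0.02) and DIS3 (-0.05) and the helicase MTREX (0.06) did not pass the test.

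The highest called value among lncRNAs separate from coding exons was that of NUTM2A-AS1 (ENSG00000223482.8, chr10:87189773-87342612, minus strand). It was at 34.6, 30.7 and 32.5 CPM in NC and at 42.3, 42.8 and 43.5 CPM in siEIF1, a rise of 31.7% with no overlap (0.40 ± 0.059 (SE), adjusted p = 3.99e-04). Its near-copy NUTM2B-AS1 did not pass the test (0.04, adjusted p = 0.701), although 44.8% of the 31-base words of NUTM2A-AS1 are also in the near-copy. LINC00294, which is 1 exon on chromosome 11, was at 20.1, 19.5 and 18.6 CPM in NC and at 24.6, 24.5 and 25.7 CPM in siEIF1 (0.36 ± 0.064 (SE), adjusted p = 0.00149). LINC02783 rose by 22.6% (0.29, adjusted p = 0.00423).

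CHASERR, which lies next to CHD2 and is known to hold its expression down, was at 47.6, 46.0 and 45.0 CPM in NC and at 56.1, 58.3 and 52.4 CPM in siEIF1. It rose by 20.4% with no overlap between the groups (0.27 ± 0.056 (SE), adjusted p = 0.00439). CHD2, a chromatin remodeller, was at 81.2, 79.5 and 83.0 CPM in NC and at 71.0, 77.0 and 89.0 CPM in siEIF1, and its groups overlapped (-0.04 ± 0.070 (SE), adjusted p = 0.741). CCDC18-AS1 rose (0.27, adjusted p = 0.0304), but without NC 3 its adjusted p was 0.0939, and its largest value without 1 library was 0.133. CCDC18, the gene for which it is named, fell (-0.58 ± 0.162 (SE), adjusted p = 0.0217).

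In all, 13 of the 71 separate genes were called, 9 higher and 4 lower (18.3%), against the background of 20.6% of all genes tested and 28.6% at the same count limit. The 4 that fell were RP11-54H7.4, DLGAP1-AS2, LOXL1-AS1 and UBA6-AS1. RP11-54H7.4, named LINC03061 in GENCODE v44, was at 106, 123 and 115 CPM in NC and at 93.3, 97.6 and 91.7 CPM in siEIF1 (-0.28 ± 0.058 (SE), adjusted p = 0.00360). LOXL1-AS1 fell by 10.0% (-0.15, adjusted p = 0.0389), while LOXL1, which encodes an enzyme that crosslinks elastin, rose (0.28 ± 0.044 (SE), adjusted p = 5.61e-04). UBA6-AS1 and the ubiquitin-activating enzyme gene UBA6 had the same value, -0.19 (adjusted p = 0.0326 and 0.0493). The call of LOXL1-AS1 was lost without any of 5 libraries in turn and that of UBA6-AS1 without any of the 6.

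Several widely studied lncRNAs did not pass the test. OIP5-AS1, which is abundant in the cytoplasm and pairs with miR-7, was at 67.8, 62.5 and 59.3 CPM in NC and at 54.5, 56.1 and 59.6 CPM in siEIF1 (-0.15 ± 0.060 (SE), adjusted p = 0.0882). The coding gene of that name, OIP5, which acts in centromere licensing, was at 1.36, 1.34 and 1.24 CPM in NC and at 0.386, 0.275 and 0.201 CPM in siEIF1 (-2.16 ± 0.304 (SE), adjusted p = 2.61e-04). FTX (0.01) and JPX (0.03), genes of the X inactivation centre, PVT1 (-0.05) and HCG18 (-0.03) had adjusted p-values of 0.902, 0.817, 0.728 and 0.872. Their standard errors were 0.056 to 0.108, and the median over the 129 genes was 0.071.

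**Figure D3:**
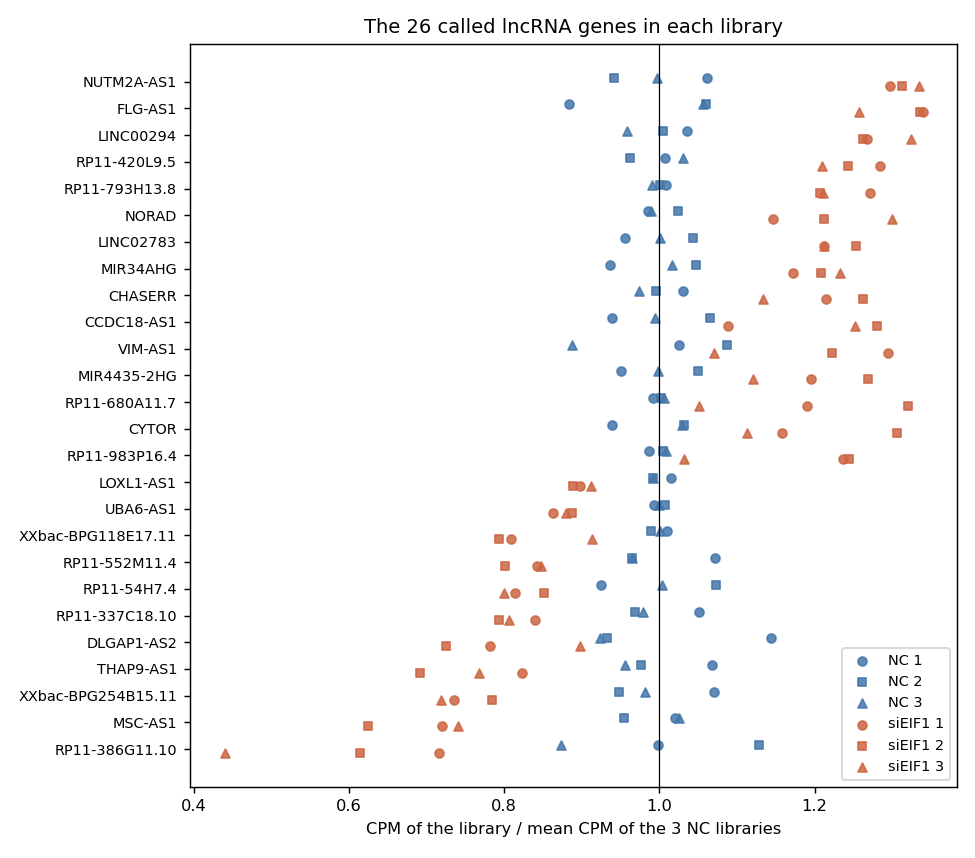
CPM of each library divided by the mean CPM of the 3 NC libraries (x axis) for the 26 lncRNA genes with an edgeR adjusted p under 0.05 (y axis, ordered by log2 fold change); blue points are NC, orange points siEIF1, and the shape gives the replicate number. The genes were picked by the test on these same values, so little overlap is built in and adds no support to the calls. The groups do not overlap for 25 of the 26 genes. Without this choice the share was 34.1% of the 129 genes, 37.1% of all genes tested and 46.8% of those with a mean count of 500 or more. In VIM-AS1, siEIF1 3 (119 CPM) lies below NC 2 (121 CPM).

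The values of lncRNA genes that share exon bases with coding genes depend on how reads were assigned, which is not given in the sources used here. Of the 25 same-strand genes, 2 rose and 5 fell (28.0% called, beside 20.6% of all genes tested and 28.6% at the same count limit). XXbac-BPG254B15.11 (chr6:31828834-31839719, plus strand) has 68.8% of its exon bases in coding exons on the same strand. HSPA1B is the coding gene that it overlaps most. The entry was at 396, 351 and 363 CPM in NC and at 272, 290 and 266 CPM in siEIF1. It fell by 25.3% with no overlap (-0.42 ± 0.056 (SE), adjusted p = 1.82e-04), whereas HSPA1B, an inducible heat-shock protein gene, did not pass the test (-0.05 ± 0.054 (SE), adjusted p = 0.600). The mean count was 9266 for the entry and 1498 for HSPA1B, and overlaps of this entry with noncoding genes were not examined. RP11-793H13.8, all of whose exon bases lie in coding exons on its strand, was at 294, 292 and 289 CPM in NC and at 371, 352 and 353 CPM in siEIF1 (0.30 ± 0.046 (SE), adjusted p = 5.31e-04). PCBP2, the RNA-binding protein gene that it overlaps most, also rose (0.23 ± 0.049 (SE), adjusted p = 0.00514).

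THAP9-AS1 moved opposite to the gene it shares exon bases with. It was at 53.7, 49.1 and 48.1 CPM in NC and at 41.4, 34.8 and 38.6 CPM in siEIF1 (-0.39 ± 0.069 (SE), adjusted p = 0.00139). SEC31A, a coat protein gene of vesicles that leave the endoplasmic reticulum, which covers 11.0% of its exon bases, rose (0.24 ± 0.045 (SE), adjusted p = 0.00222). THAP9, the gene for which THAP9-AS1 is named, had a value of -0.37 ± 0.178 (SE) and did not pass the test (adjusted p = 0.166). Over the 22 same-strand pairs in which the coding gene was also tested, 4 lncRNA genes were called, and the coding gene moved the same way in 2, the other way in 1 and was not called in 1. RP11-337C18.10, RP11-552M11.4 and XXbac-BPG118E17.11 also fell, by 18.7%, 16.8% and 16.2%, and RP11-680A11.7 rose by 18.8%. WDR77, which overlaps RP11-552M11.4, fell as well (-0.21 ± 0.068 (SE), adjusted p = 0.0408). CHD1L, VARS2 and MYG1, which overlap RP11-337C18.10, XXbac-BPG118E17.11 and RP11-680A11.7, had too few counts to be tested (means of 2.17, 9.17 and 4.50). These 3 lncRNA entries had mean counts of 1230, 660 and 976, in the same order. Of their exon bases, 65.7%, 98.0% and 58.8% lay in coding exons on their strand. How reads were divided between each entry and its coding gene was not tested.

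Of the 33 opposite-strand genes, 4 rose and 2 fell (18.2% called, beside the same 20.6% and 28.6%). The lowest value of all 129 was that of RP11-386G11.10, named TUBA1B-AS1 in GENCODE v44 (chr12:49127782-49188484, plus strand), at 47.0, 53.1 and 41.1 CPM in NC and at 33.7, 28.9 and 20.7 CPM in siEIF1. It fell by 41.0% with no overlap between the groups (-0.76 ± 0.136 (SE), adjusted p = 0.00148). TUBA1B, the alpha-tubulin gene opposite to 35.5% of its exon bases, fell as well, from 457, 439 and 417 CPM to 285, 271 and 275 CPM (-0.66 ± 0.051 (SE), adjusted p = 1.61e-06). The counts of RP11-386G11.10 were 10.3%, 12.1% and 9.85% of those of TUBA1B in NC and 11.8%, 10.6% and 7.52% in siEIF1. Only siEIF1 3 lay below NC in this percentage, and without siEIF1 3 the log2 fold change of RP11-386G11.10 was -0.59. MSC-AS1 was at 47.4, 44.3 and 47.6 CPM in NC and at 33.4, 29.0 and 34.4 CPM in siEIF1, a fall of 30.5% (-0.52 ± 0.069 (SE), adjusted p = 1.51e-04). MSC, the transcription factor gene for which it is named, fell too (-0.61 ± 0.098 (SE), adjusted p = 7.32e-04), while TRPA1, a cation channel gene opposite to 12.6% of its exon bases, did not pass the test (-0.54 ± 0.285 (SE), adjusted p = 0.212).

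FLG-AS1, which lies opposite to the filaggrin gene FLG, was at 25.0, 30.0 and 29.9 CPM in NC and at 37.9, 37.8 and 35.6 CPM in siEIF1 (0.39 ± 0.073 (SE), adjusted p = 0.00208). The FLG value had a wide error (0.61 ± 0.474 (SE), adjusted p = 0.417). RP11-420L9.5 rose (0.32 ± 0.066 (SE), adjusted p = 0.00433), from 17.5, 16.7 and 17.9 CPM to 22.3, 21.6 and 21.0 CPM, while PXDC1, the gene opposite to 15.9% of its bases, had a value of -0.13 (adjusted p = 0.101). VIM-AS1 rose (0.26 ± 0.079 (SE), adjusted p = 0.0355) with the intermediate filament gene VIM (0.30 ± 0.054 (SE), adjusted p = 0.00164), and its largest adjusted p without 1 library was 0.170. RP11-983P16.4 rose (0.23, adjusted p = 0.0472) with the initiation factor gene EIF4B (0.21, adjusted p = 0.00620), and its call held without siEIF1 3 and was lost without any of the other libraries in turn. Over these 33 pairs, the coding gene moved the same way as the 6 called lncRNA genes in 3 and was not called in 3.

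**Figure D4:**
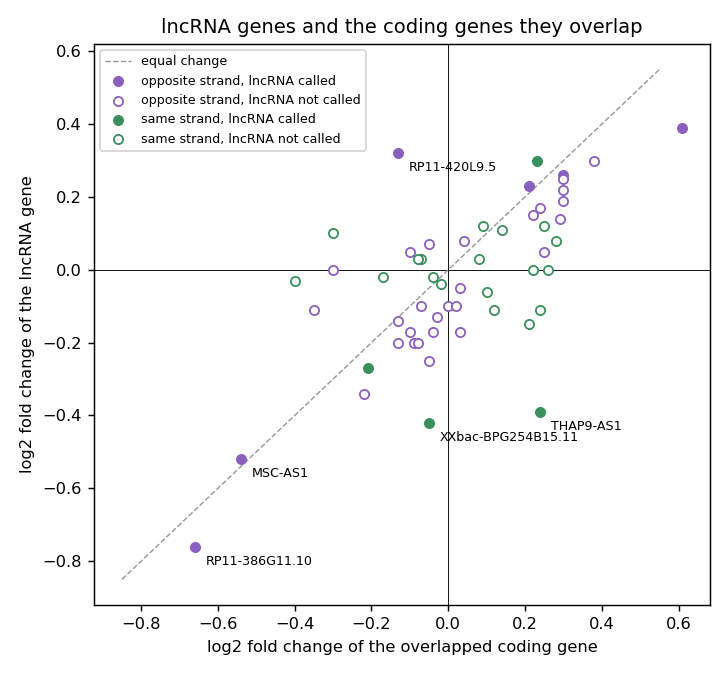
Log2 fold change of lncRNA genes (y axis) against that of the coding gene whose exons they overlap (x axis), for 33 opposite-strand and 22 same-strand pairs; the dashed line marks equal change and filled points are called lncRNA genes. RP11-386G11.10 lies near the line (-0.76 against -0.66 for TUBA1B), and THAP9-AS1 (-0.39 against 0.24 for SEC31A) lies far from it.

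Among the opposite-strand genes 1 library, siEIF1 3, stood apart from the other 5. In 23 pairs the coding gene had at least 5 times the counts of the lncRNA entry, and there the lncRNA counts were expressed as a percentage of the coding gene's. RP5-940J5.9 was 7.60%, 8.14% and 6.77% of GAPDH in NC and 8.06%, 7.65% and 5.86% in siEIF1. RP11-290D2.6 was 5.46%, 6.50% and 5.56% of TPT1 in NC and 6.41%, 6.03% and 4.77% in siEIF1. RP11-138I1.4 was 9.04%, 9.45% and 8.53% of the ubiquitin gene UBB in NC and 9.38%, 8.96% and 6.55% in siEIF1. The library siEIF1 3 was the lowest in each of these, and it was the lowest in 21 of the 23 pairs. VIM is the coding gene of both VIM-AS1 and RP11-124N14.3, so the pairs are not all separate cases. By CPM, siEIF1 3 was the lowest library for 19 of the 33 opposite-strand genes and for 8 of the 71 separate genes.

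Relative to the NC mean of each pair, the median percentage was 0.740 in siEIF1 3, with a range from 0.534 to 1.377. It was 1.080 in siEIF1 1, 0.995 in siEIF1 2, 1.006 in NC 1, 1.073 in NC 2 and 0.917 in NC 3. Replicate number 3 thus had the lowest median in both groups. The exception with the highest value in siEIF1 3 was RP11-420L9.5, at 13.5%, 12.2% and 13.5% of PXDC1 in NC and 18.5%, 16.8% and 18.0% in siEIF1. For the whole set, 14 of the 18 lncRNA genes with a 1.5-fold or larger range within a group were opposite-strand genes, and 12 of those 14 were lowest in siEIF1 3. The part of the strand selection of each library in these values was not tested.

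**Figure D5:**
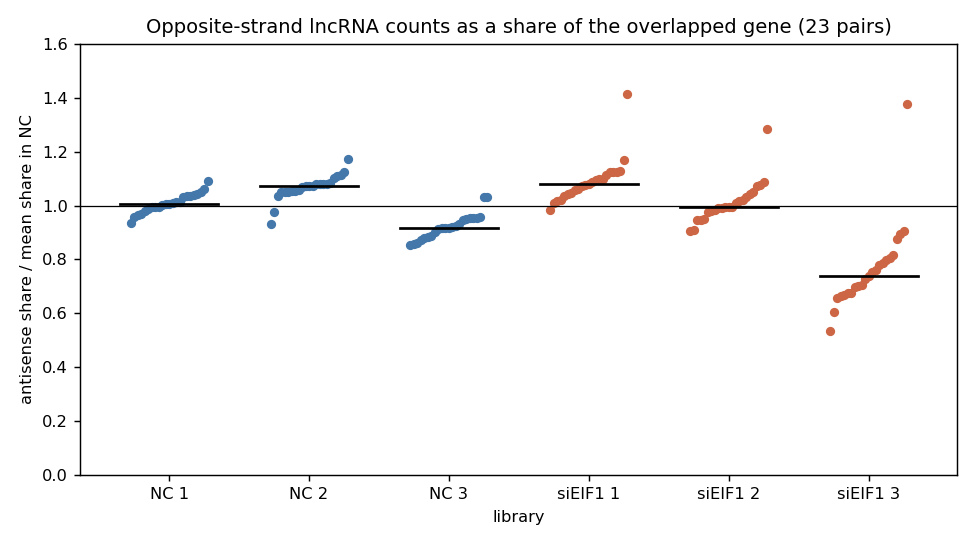
Counts of an opposite-strand lncRNA gene as a share of the counts of the coding gene it overlaps, divided by the mean share in NC (y axis), for 23 pairs (points) in each library (x axis); black lines are medians. The siEIF1 3 points have a median of 0.740 and the other libraries have medians of 0.917 to 1.080.

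Results on these entries moved with that library. With all 6 libraries, RP5-940J5.9 was at 302, 332 and 263 CPM in NC and at 408, 388 and 271 CPM in siEIF1, and it was not called (0.25 ± 0.122 (SE), adjusted p = 0.179), while GAPDH rose (0.30 ± 0.055 (SE), adjusted p = 0.00169). Without siEIF1 3 its value was 0.41 (adjusted p = 0.00125). RP11-124N14.3, opposite to VIM, went from 0.22 (adjusted p = 0.212) to 0.38 (adjusted p = 8.82e-04) in the same way. Leaving out siEIF1 3 gave 23 abundant lncRNA genes higher and 12 lower (35 of 129), and leaving out siEIF1 1 gave 16 higher and 10 lower. In these runs 20.5% and 19.1% of all genes tested were called, against 20.6% with all 6 libraries. In every one of the alternative fits and leave-one-out runs, 14 of the 26 calls were made: CHASERR, FLG-AS1, LINC00294, LINC02783, NORAD, NUTM2A-AS1, RP11-420L9.5 and RP11-793H13.8 were higher, and MSC-AS1, RP11-337C18.10, RP11-386G11.10, RP11-54H7.4, THAP9-AS1 and XXbac-BPG254B15.11 were lower. A further 10 calls were lost without NC 1, and the same 10 without siEIF1 2: CCDC18-AS1, CYTOR, DLGAP1-AS2, LOXL1-AS1, RP11-552M11.4, RP11-680A11.7, RP11-983P16.4, UBA6-AS1, VIM-AS1 and XXbac-BPG118E17.11. Without NC 3, siEIF1 1, NC 2 or siEIF1 3, 7, 7, 4 and 2 calls were lost. The share of all genes called was 13.8% without NC 1, 13.2% without siEIF1 2, 14.0% without NC 3 and 15.8% without NC 2. MIR34AHG and MIR4435-2HG held in every leave-one-out run and were lost with limma on log2(FPKM + 1).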

How the data were processed

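The authors trimmed reads with FASTX-Toolkit, aligned them to GRCh38 with HISAT2 and counted uniquely mapped reads per gene. The authors deposited these counts without normalization and, separately, FPKM values (fragments per kilobase of transcript, scaled to the mapped fragments). The counting program, its strand setting and the annotation release are not given in the sources used here, so counts of overlapping, antisense and near-identical genes are uncertain. Libraries were grouped by their titles, and 0 columns were left unmatched.

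The deposited counts were fitted with edgeR 4.0.16 in R 4.3.3 (TMM, filterByExpr, quasi-likelihood test, group as the only term), with Benjamini-Hochberg adjustment over all 16749 genes tested. Calls were made at an adjusted p below 0.05. The SE was derived from the F statistic. FPKM was used for levels between genes. The test was tested on simulated data with known changes. Alternatives were RLE, upper-quartile and total-count scaling, other count filters, DESeq2 1.42.0, limma 3.58.1 on log2(FPKM + 1) and log2(FPKM + 0.1), a replicate block, other count limits, an adjusted p under 0.01 and leaving out each library.

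Exons and sequences came from GENCODE v44 on GRCh38 and mature microRNAs from RefSeq; 129 of 129 genes matched by Ensembl identifier. Libraries of a group differed by more than sampling noise (chi-square per degree of freedom 2.34 to 9.47). The members and gene lists were chosen with earlier results of these data known. Named are EIF1, called members among the 8 highest and 8 lowest log2 fold changes, those of the 8 highest mean FPKM values that are reported here, members of known role, the 3 on each side of the count limit, coding partners and up to 3 genes per list; the other called members, the remaining list genes given, MIR222HG, RP11-596C23.6, RP11-156P1.3, CHD2 and the RNAs without a tail were named after their values were seen. XIST and a few other named genes are not reported here.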

Additional observations from a re-analysis of the deposited data

How the results depend on the processing

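Of the 26 called lncRNA genes, 14 were called in every alternative fit and leave-one-out run, and no called gene changed sign in any of them. The members higher numbered 15 and the members lower 11. Leaving out 1 library at a time gave 10 to 23 higher and 6 to 12 lower, while the share of all genes called ran from 13.2% to 20.5%. With limma, 8 were higher on log2(FPKM + 1) and 9 on log2(FPKM + 0.1), where 15.0% and 15.2% of all genes were called. An adjusted p under 0.01 left 6 lower. With a mean count of 250 or more as the limit there were 28 higher and 23 lower, and with 1000 or more 8 higher and 7 lower, since other genes were counted. Total-count scaling moved the median log2 fold change of the members to -0.025. Without a count filter, 36 were called, MALAT1 (0.42) among them, beside 11.8% of all genes in that fit. The cause was not tested.

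The fit with the replicate number as a block called 39 members, 20 of them lower, and 4277 genes in all (25.5%). Deviations of same-numbered libraries from their group means correlated at 0.149, 0.095 and 0.128 for numbers 1, 2 and 3, which were small but all positive. MALAT1 rose from number 1 to number 3 in NC as well as in siEIF1. Whether the numbers pair the samples was not tested, and the main fit left them out.

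The median SE was 0.071 for the members, 0.060 for all genes at the same count limit and 0.265 for the less abundant lncRNA genes. Counts on overlapping exons depend on a strand setting that is not known here.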
